A study of Mus musculus with 6 samples.

Results

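The wall of a blood vessel is described here through 40 genes measured in mouse gastrocnemius, the large fast-twitch calf muscle. They were taken by name, as known markers of vessel cells, and matched by symbol in a table of 54532 genes, where each had exactly 1 row. They fall into 18 endothelial genes, 12 genes of angiogenic signalling (growth factors, their receptors and the Notch system) and 10 mural genes, that is, genes of pericytes and smooth muscle. All 40 passed the filter on low counts, so they are 40 of the 14973 genes tested. The genes were chosen with earlier results of these data known, so their shares below are not those of a list chosen without sight of the data.

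Messenger RNA was sequenced in 3 libraries labelled Ctrl, from mice with the genotype Mck cre, and in 3 libraries labelled MP, from mice with the genotype Mck cre; Tg Glut1-Hk2-Pfkfb3. Every mouse was C57BL/6J and 3 months old, and every one received 0.2% doxycycline in the drinking water from the age of 4 weeks, the controls included. Mck cre is Cre recombinase under the muscle creatine kinase promoter, which is active in striated muscle fibres, so the driver is directed at fibres and not at vessels. Whether each library was made from its own animal is not stated in the labels, so the p-values measure the spread between these libraries, which may be technical.

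Endothelial cells line every vessel. In skeletal muscle most of them belong to continuous capillaries that run along the fibres. They respond to VEGF through the receptors KDR and FLT1, and to angiopoietins through TEK and its partner TIE1. The Notch ligand DLL4 and receptors NOTCH1 and NOTCH4 set which endothelial cells sprout. Endothelial PDGF-B recruits pericytes, which carry the receptor PDGFRB, and mural cells are kept in their state by NOTCH3, which the endothelial ligand JAG1 engages. Arteriolar smooth muscle adds a contractile set that includes the smooth muscle myosin MYH11 and the actin ACTA2.

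The libraries held 19546456 to 24665024 counts. Levels are given as CPM, the count relative to a library size scaled by TMM, which assumes that most genes do not change. The genes of the transgene did not check the labels. Pfkfb3 was at 579 to 1585 CPM in the libraries labelled Ctrl and at 120 to 542 CPM in those labelled MP, Slc2a1 at 12.0 to 23.3 against 8.05 to 13.5 CPM, and Hk2 at 156 to 187 against 168 to 341 CPM. None passed as higher, so every direction here is drawn between libraries as labelled. Ctrl replicate 1 stood apart, with no correlation above 0.969 (log2(CPM + 1) over the tested genes) against a best partner at 0.986 to 0.993 for each of the other 5. It held 477 CPM over 6 B cell markers against 6.90 to 56.5 CPM elsewhere, and 86.0 CPM over 6 T cell markers against 0.520 to 3.64 CPM. Markers of muscle fibres, 8 in all, summed to 98178 to 145277 CPM in the Ctrl libraries and to 108207 to 121836 CPM in the MP libraries, so fibre RNA was abundant in all 6.

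Promoter windows from RefSeq (build GRCm38.p6, 250 bases before to 50 bases after the start site, written 5′ to 3′ on the gene's strand) were found for 23 of the 40 genes. Of each group, the window of the gene with the smallest p among those with a single window is shown, so that each group's results below stand beside 1 of its promoters. Capitals mark the letters AGGAAG or CGGAAG on either strand, which extend the core GGAA that ETS factors such as ERG and FLI1 recognise. The core outside these longer strings was neither marked nor counted.
Pald1 (chr10:61383290-61383589, minus strand): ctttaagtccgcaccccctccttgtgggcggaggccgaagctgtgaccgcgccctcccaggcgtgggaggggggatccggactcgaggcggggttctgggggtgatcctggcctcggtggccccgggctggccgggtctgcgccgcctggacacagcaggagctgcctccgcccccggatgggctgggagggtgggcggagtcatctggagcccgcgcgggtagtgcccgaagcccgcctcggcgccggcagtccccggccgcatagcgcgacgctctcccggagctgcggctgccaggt
Flt1 (chr5:147725962-147726261, minus strand): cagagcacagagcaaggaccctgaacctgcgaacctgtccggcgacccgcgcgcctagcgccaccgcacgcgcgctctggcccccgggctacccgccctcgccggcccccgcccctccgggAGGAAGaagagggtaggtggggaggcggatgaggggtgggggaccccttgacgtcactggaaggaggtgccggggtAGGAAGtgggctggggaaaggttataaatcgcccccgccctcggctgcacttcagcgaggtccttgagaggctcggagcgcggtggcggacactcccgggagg
Notch3 (chr17:32166841-32167140, minus strand): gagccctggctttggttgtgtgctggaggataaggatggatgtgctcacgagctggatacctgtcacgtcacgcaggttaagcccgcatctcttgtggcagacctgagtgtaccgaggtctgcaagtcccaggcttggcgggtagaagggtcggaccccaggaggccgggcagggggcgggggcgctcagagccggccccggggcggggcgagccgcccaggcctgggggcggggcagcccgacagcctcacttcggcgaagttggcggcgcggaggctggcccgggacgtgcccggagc
The Flt1 window held 2 matches, beginning 129 and 53 bases before the start site, and the Pald1 and Notch3 windows held 0. All 3 were rich in G and C, at 74.7% for Pald1, the highest of the 27 windows of these genes, 70.7% for Flt1 and 70% for Notch3, against a median of 52.7% over all 32851 windows. Such an extended ETS string lay in 10 of the 27 windows, or 37%, and in 46.5% of all windows. The letters TGGGAA, the core bound by the Notch effector RBPJ, lay in 5 of the 27 (18.5%, and 25.6% of all). The letters CAGCTG, an E-box, lay in 5 (18.5%, and 16.3% of all), and both strands were searched for both. A match is a description of these letters only.

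Pald1 was the only gene of the 40 that passed the test, and it was higher in the libraries labelled MP. Pald1 (ENSMUSG00000020092, chromosome 10, 61319656 to 61383530 on GRCm38, protein-coding) encodes paladin, a phosphatase-domain protein known from endothelium. It was at 15.6, 11.0 and 13.8 CPM in Ctrl replicates 1, 2 and 3 and at 45.0, 60.5 and 65.0 CPM in MP replicates 1, 2 and 3. The groups lay far apart, and MP replicate 1 was the lowest of the MP libraries. The means were 13.4 ± 2.34 and 56.8 ± 10.5 CPM (SD, n = 3 each), a 4.22-fold difference (95% interval 3.09 to 5.76). The log2 fold change was 2.08 ± 0.19 (SE), with an edgeR adjusted p of 0.0184 over all 14973 genes.

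One called gene of 40 is to be read against 118 of all tested genes called as higher, or 0.788%, and 76 called as lower, or 0.508%. The Pald1 call held without Ctrl replicate 1 (edgeR adjusted p = 0.00444) and without MP replicate 1 (0.0206). It was lost without Ctrl replicate 2 (0.0629), Ctrl replicate 3 (0.129), MP replicate 2 (0.110) and MP replicate 3 (0.0930), while the log2 fold change stayed between 1.95 and 2.23. The share of all tested genes called as higher was 5.91% and 0.253% in the fits without Ctrl replicate 1 and MP replicate 1. It was 0.0129% and 0% without Ctrl replicates 2 and 3, and 0.00649% and 0.00648% without MP replicates 2 and 3.

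Pald1 was also called, as the only member, with library totals alone (1.37% of all tested genes called as higher), DESeq2 size factors (0.882%), upper quartile scaling (1.06%), no filter (0.299%) and a filter of at least 1 CPM in 3 libraries (1.11%). The same held with limma-voom (0.608%) and with limma on log2(FPKM + 1) (0.454%) and log2(FPKM + 0.1) (0.514%). DESeq2 called Pald1 with 5 further members, Notch3, Pdgfrb, Cspg4, Myh11 and Pdgfb, where it called 4.34% of all tested genes as higher.

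The other endothelial genes did not share this profile. Pecam1, the junctional adhesion molecule CD31, was at 123, 76.6 and 92.7 CPM in the Ctrl libraries and at 199, 110 and 108 CPM in the MP libraries, so the groups overlapped (log2 fold change 0.51 ± 0.28, adjusted p = 0.330, and 0.18 without MP replicate 1). For every Pecam1 count there were 0.127, 0.143 and 0.149 Pald1 counts in Ctrl replicates 1, 2 and 3 and 0.226, 0.549 and 0.603 in MP replicates 1, 2 and 3. The ratio to Cdh5 ran from 0.170 to 0.179 in the Ctrl libraries and from 0.240 to 0.699 in the MP libraries. Both ratios were higher in every MP library than in any Ctrl library. Which cells of the muscle the Pald1 reads came from was not tested.

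**Figure D1:**
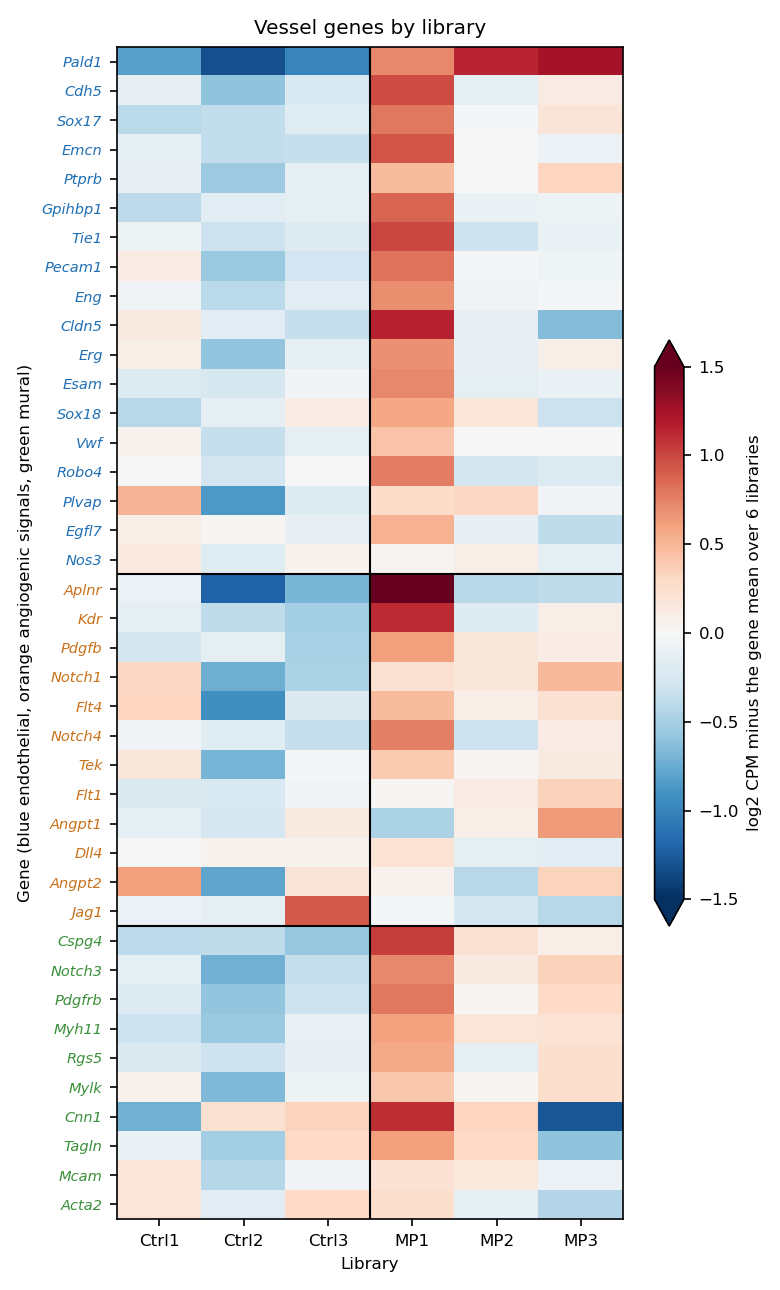
Each row is 1 of the 40 genes and each column 1 library; colour gives log2 CPM minus the gene's mean over the 6 libraries, with genes ordered by log2 fold change within the 3 groups. The column of MP replicate 1 is the reddest, with 31 of the 40 genes at their highest there, while Pald1 is red in all 3 MP columns.

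Over the 40 genes, 35 had a log2 fold change above 0, against 46.6% of all tested genes. Their median was 0.45, against -0.03 over all tested genes. Without adjustment 12 of the 40 had p under 0.05, all 12 higher in the MP libraries, against 10.5% of tested genes with an unadjusted p under 0.05 and a higher level. In 11 of the 40 genes every MP library lay above every Ctrl library, as in 13.8% of all tested genes. The reverse held in 0 of the 40, against 13.6%. In bulk tissue RNA, more or fewer vessel cells and more or less RNA per cell cannot be told apart.

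**Figure D2:**
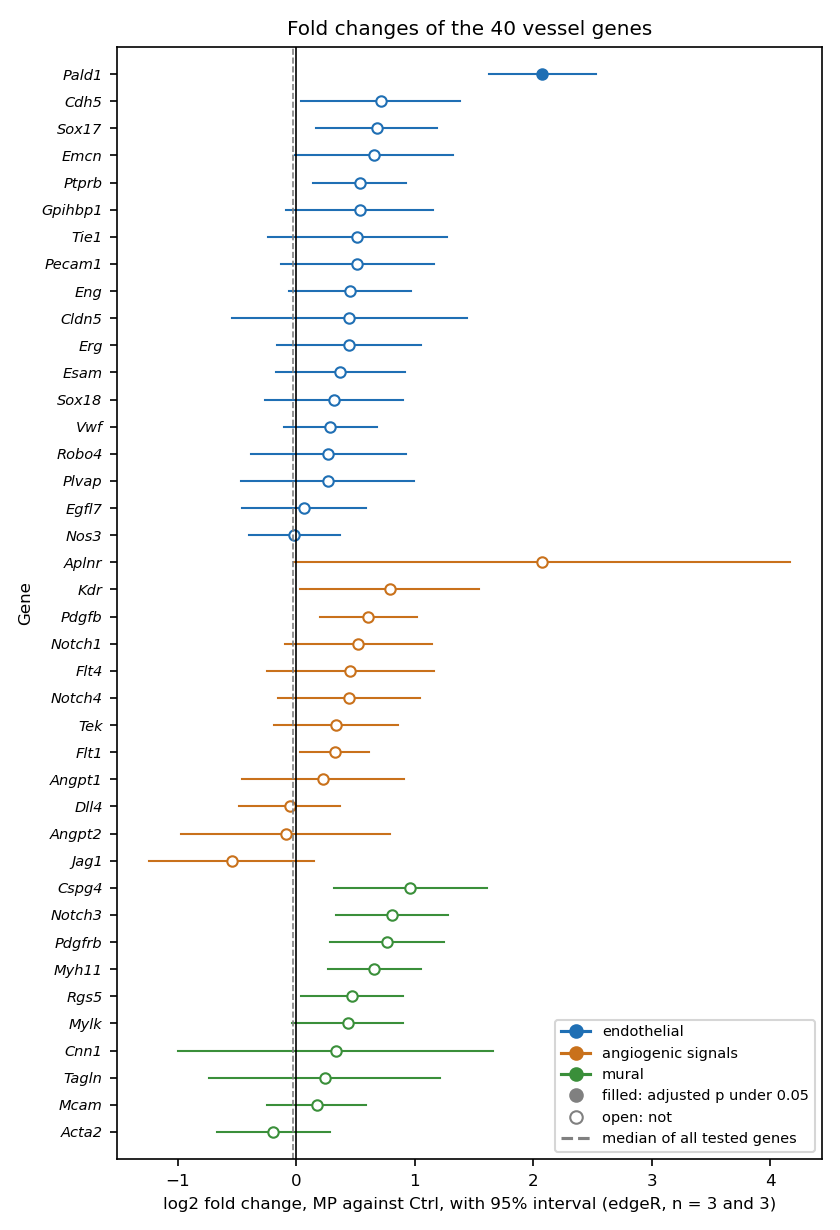
Log2 fold change of the libraries labelled MP against those labelled Ctrl, with its 95% interval, for each of the 40 genes; filled points passed an adjusted p of 0.05 and the dashed line is the median of all tested genes. Pald1 is the only filled point, at 2.08, and Aplnr, at 2.07, has the widest interval.

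A single library carried much of this shift. MP replicate 1 had the highest CPM of the 6 libraries in 31 of the 40 genes, where it was highest in 21.1% of all tested genes. In 16 of the 40 its value was more than 1.5 times that of the next highest library, as in 2.68% of tested genes. Ctrl replicate 2 was the lowest library in 24 of the 40, against 24.3% of all genes. The CPM of the 40 genes summed to 1295, 1047 and 1237 in Ctrl replicates 1, 2 and 3 and to 2179, 1372 and 1507 in MP replicates 1, 2 and 3. Without Pald1 the sums were 1279, 1036 and 1223 CPM against 2134, 1312 and 1442 CPM, so MP replicate 2 lay barely above Ctrl replicate 1.

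Without MP replicate 1 the median log2 fold change of the 40 genes was 0.19, with -0.04 over all tested genes. Of the 40 genes 36 then had a lower log2 fold change, all but Pald1, Flt1, Angpt1 and Notch1. The count above 0 went from 35 to 30, where 46.1% of all genes tested in that fit lay above 0. MP replicates 2 and 3 alone both lay above every Ctrl library in 11 of the 40 genes, where 18.4% of tested genes did so. These are the same 11 that separated with all libraries, so no gene was added. MP replicates 2 and 3 both lay below in 2, Dll4 and Jag1, against 19.3%.

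**Figure D3:**
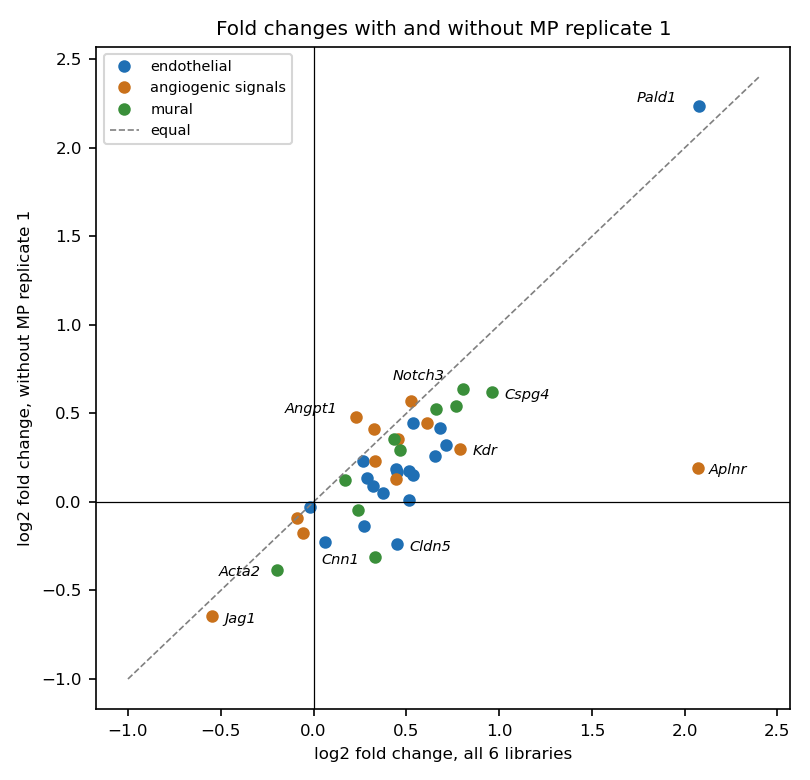
Each point is 1 of the 40 genes, with its log2 fold change from all 6 libraries on the horizontal axis and from 5 libraries, without MP replicate 1, on the vertical axis; the dashed line marks equal values. Pald1 lies above the line, at 2.23 without that library, and Aplnr falls from 2.07 to 0.19.

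Among the 18 endothelial genes 1 passed as higher, Pald1, and 0 as lower. The median log2 fold change was 0.45 with all libraries and 0.16 without MP replicate 1. Cdh5 (ENSMUSG00000031871), the adherens junction protein VE-cadherin, was at 87.0, 62.6 and 81.1 CPM in the Ctrl libraries and at 188, 86.6 and 104 CPM in the MP libraries. MP replicate 2 lay just below Ctrl replicate 1, and the log2 fold change of 0.71 ± 0.29 (interval 0.04 to 1.38, adjusted p = 0.222) became 0.32 without MP replicate 1. Ptprb (ENSMUSG00000020154), the receptor phosphatase VE-PTP that acts on TEK and VE-cadherin, was at 79.9, 59.8 and 79.7 CPM against 121, 87.9 and 110 CPM. Its groups did not overlap, with a log2 fold change of 0.54 ± 0.17 (interval 0.15 to 0.93, adjusted p = 0.144). Sox17 (ENSMUSG00000025902), a transcription factor of arterial endothelium, was at 16.2, 16.6 and 18.9 CPM against 37.3, 21.0 and 24.6 CPM. It also separated the groups, at 0.68 ± 0.22 (interval 0.17 to 1.19, adjusted p = 0.154, and 0.42 without MP replicate 1).

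Emcn, a sialomucin of capillaries and veins, and Gpihbp1, which carries lipoprotein lipase across the capillary wall, were the remaining endothelial genes without overlap. Emcn was at 9.43, 8.03 and 8.16 CPM against 20.0, 10.5 and 9.81 CPM. Gpihbp1 was at 42.8, 50.6 and 51.0 CPM against 103, 52.6 and 53.2 CPM. In both, MP replicates 2 and 3 sat close to the Ctrl libraries and MP replicate 1 stood well above them, at 1.98 and 1.95 times the mean of the other MP libraries. Without it their log2 fold changes went from 0.65 to 0.26 and from 0.54 to 0.15.

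The rest of the endothelial genes overlapped between the groups. Tie1, the orphan receptor that partners TEK, had 0.52 ± 0.32 with all libraries and 0.01 without MP replicate 1, where its 88.1 CPM stood against 35.2 to 41.5 CPM in the other 5. The log2 fold changes of the tight junction gene Cldn5, the secreted factor gene Egfl7 and the guidance receptor gene Robo4 were 0.45, 0.06 and 0.27 with all libraries and -0.24, -0.23 and -0.14 without MP replicate 1. Eng, a TGF-beta co-receptor, the ETS factor gene Erg, the junction gene Esam, the clotting factor gene Vwf and the transcription factor gene Sox18 lay between 0.29 and 0.45. Their smallest edgeR adjusted p was 0.295, for Eng. Without MP replicate 1 the log2 fold changes were 0.17 for Eng, 0.18 for Erg, 0.052 for Esam, 0.14 for Vwf and 0.092 for Sox18. Nos3, endothelial nitric oxide synthase, was nearly level at 9.76, 7.75 and 9.13 CPM against 9.05, 9.36 and 7.93 CPM (log2 fold change -0.02 ± 0.17, interval -0.40 to 0.37). Plvap, a protein of the diaphragms of fenestrated endothelium, spread more within the Ctrl libraries, at 26.1, 10.1 and 16.1 CPM, than the MP libraries at 22.3, 22.9 and 17.9 CPM did. Genes overlap Plvap, Egfl7 and Eng on the opposite strand (Gtpbp3, Agpat2 and Fpgs, with 97.5%, 26% and 14.4% of their counts), so these values are uncertain.

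The 12 genes of angiogenic signalling had 0 past the threshold in edgeR's test, 3 of them with an unadjusted p under 0.05, against 20.8% of all tested genes in either direction. Their median log2 fold change was 0.39, and 0.27 without MP replicate 1. DESeq2 called 1 of the 12, Pdgfb, where it called 4.34% of all tested genes as higher.

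Among the VEGF receptors, Kdr (ENSMUSG00000062960), the main signalling receptor VEGFR2, was at 32.4, 27.4 and 25.1 CPM in the Ctrl libraries and at 77.4, 31.3 and 37.8 CPM in the MP libraries. MP replicate 1 was 2.05 times the next highest library, and MP replicate 2 lay within the Ctrl range (log2 fold change 0.79 ± 0.33, interval 0.03 to 1.54, adjusted p = 0.228, and 0.30 without MP replicate 1). Flt1 (ENSMUSG00000029648), the decoy-like receptor VEGFR1 whose promoter is printed above, was at 70.2, 69.7 and 79.1 CPM against 82.3, 88.8 and 103 CPM. Here MP replicate 1 was the lowest of the MP libraries and the groups did not overlap. The difference was small, at 0.33 ± 0.13 (interval 0.03 to 0.62, adjusted p = 0.204), and 0.41 without MP replicate 1. Flt4, the lymphatic receptor VEGFR3, was at 8.38, 3.54 and 5.76 CPM against 9.30, 7.17 and 7.85 CPM, with overlap (0.46 ± 0.30).

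Aplnr (ENSMUSG00000044338), the apelin receptor of sprouting and venous endothelium, had almost the same log2 fold change as Pald1, 2.07 ± 0.90, but an interval from -0.02 to 4.17 and an adjusted p of 0.242. It was at 3.30, 1.51 and 2.17 CPM in the Ctrl libraries and at 24.1, 2.62 and 2.68 CPM in the MP libraries, from 584 counts in MP replicate 1 and 32 to 79 in each of the other 5. Only MP replicate 1 was high, 7.32 times the next library, and the log2 fold change without it was 0.19. Per Pecam1 count there were 0.121 Aplnr counts in MP replicate 1 and 0.0197 to 0.0269 in the other libraries, so Aplnr was raised in that library also relative to Pecam1.

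Pdgfb (ENSMUSG00000000489), the pericyte-recruiting ligand, had the smallest p of the signalling genes. It was at 21.2, 23.5 and 18.3 CPM against 39.5, 29.0 and 27.7 CPM, without overlap (0.61 ± 0.17, interval 0.20 to 1.02, adjusted p = 0.124). The angiopoietin system showed no such separation. The receptor gene Tek was at 28.7, 15.8 and 25.1 CPM against 33.5, 26.1 and 28.0 CPM. Its agonist Angpt1 ran from 4.73 to 6.18 CPM in the Ctrl libraries and from 4.05 to 8.73 CPM in the MP libraries, lowest of all in MP replicate 1. The antagonist Angpt2 had 26 to 78 counts in the Ctrl libraries and 33 to 67 in the MP libraries. Its value is uncertain, because Mcph1 overlaps it on the opposite strand and had 250% of its counts.

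The Notch genes of endothelium had 0 past the threshold in edgeR's test and 0 with an unadjusted p under 0.05. Notch1 was at 22.8, 11.1 and 13.2 CPM against 21.6, 20.6 and 25.6 CPM, so Ctrl replicate 1 alone lay among the MP values (0.52 ± 0.27, adjusted p = 0.307). Without Ctrl replicate 1 its log2 fold change was 0.89 with an edgeR adjusted p of 0.0191, where 5.91% of all tested genes were called as higher. Over the alternatives to the full fit the adjusted p of Notch1 ran up to 0.564. Notch4 followed MP replicate 1, at 23.8, 21.7 and 19.4 CPM against 41.6, 19.9 and 26.8 CPM (0.45 ± 0.26, and 0.13 without MP replicate 1). The ligand gene Dll4 was level, at 5.63, 5.86 and 5.85 CPM against 6.53, 5.09 and 5.05 CPM (log2 fold change -0.06 ± 0.18, interval -0.49 to 0.37). Jag1 had the lowest log2 fold change of the 40, -0.55 ± 0.30 (interval -1.24 to 0.15, adjusted p = 0.337). It was at 13.6, 13.1 and 27.3 CPM in the Ctrl libraries and at 14.2, 12.0 and 10.8 CPM in the MP libraries, and without the high Ctrl replicate 3 the value was -0.12.

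**Figure D4:**
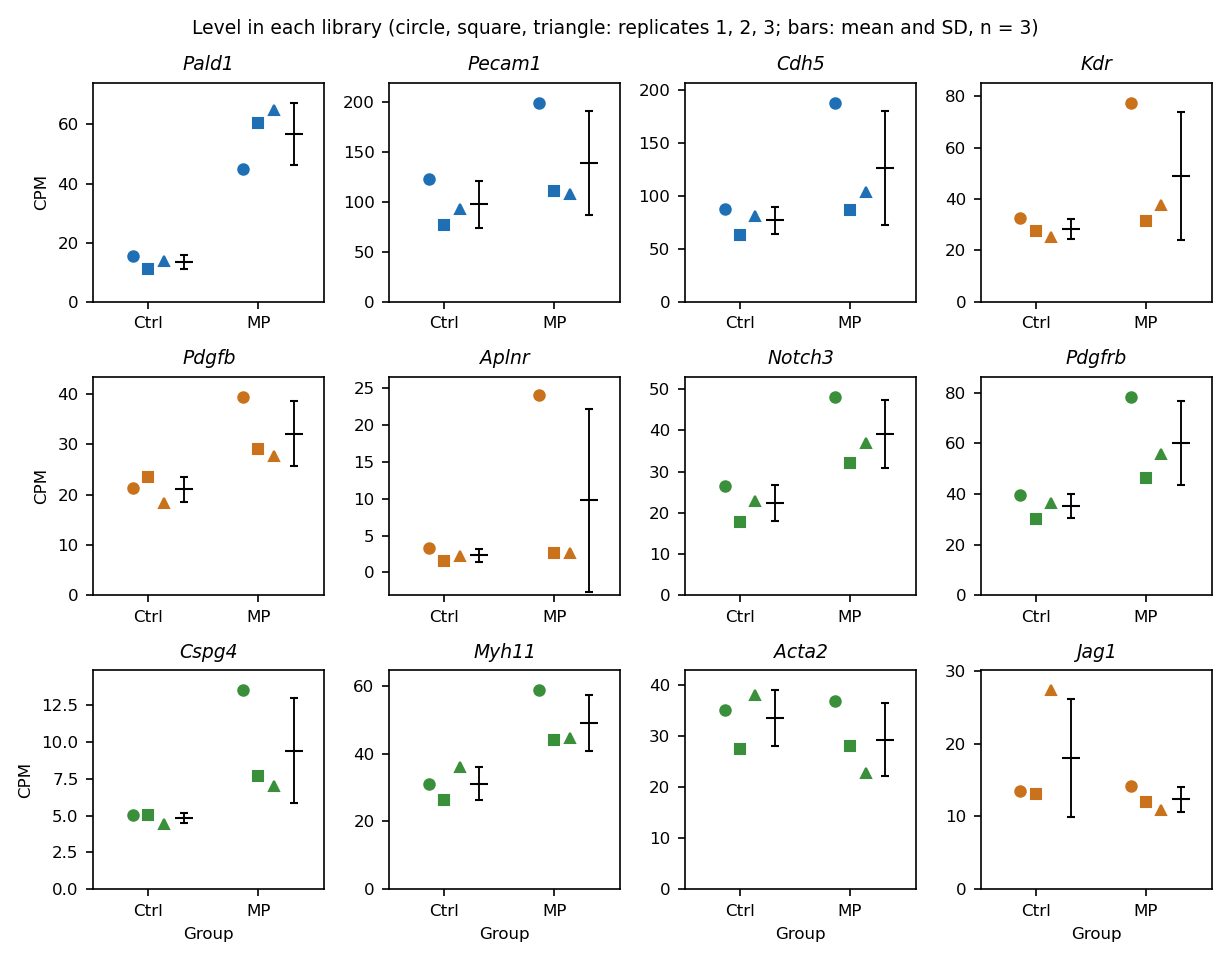
CPM of 12 of the genes in every library of the Ctrl and MP groups, with the mean and SD of each group beside the points (n = 3). In Pecam1, Cdh5, Kdr and Aplnr the circle of MP replicate 1 stands apart from the other MP libraries, in Notch3, Pdgfrb, Cspg4 and Myh11 all 3 MP libraries lie above all 3 Ctrl libraries, and in Acta2 the groups overlap.

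The 10 mural genes had 0 past the threshold in edgeR's test. An unadjusted p under 0.05 was found in 5 of the 10, and in 20.8% of all tested genes. DESeq2 called 4, Notch3, Pdgfrb, Cspg4 and Myh11, where it called 4.34% of all genes as higher. Their median log2 fold change was 0.45, and 0.33 without MP replicate 1. These same 4 genes separated the groups with all libraries (13.8% of all tested genes lay that way). That places MP replicates 2 and 3 above every Ctrl library in them by definition. No further mural gene separated when MP replicates 2 and 3 alone were set against the Ctrl libraries, where 18.4% of all tested genes lay above.

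Notch3 (ENSMUSG00000038146, chromosome 17, 32120820 to 32166880), the Notch receptor of mural cells, was at 26.6, 17.7 and 22.8 CPM in the Ctrl libraries and at 48.2, 32.1 and 37.0 CPM in the MP libraries. All MP values were higher, a 1.75-fold difference (interval 1.26 to 2.43; log2 fold change 0.81 ± 0.20, edgeR adjusted p = 0.0977). Pdgfrb (ENSMUSG00000024620), the PDGF receptor of pericytes and fibroblasts, was at 39.6, 30.2 and 36.3 CPM against 78.5, 46.4 and 55.7 CPM (0.77 ± 0.21, adjusted p = 0.110). Cspg4 (ENSMUSG00000032911), the pericyte proteoglycan NG2, had the largest log2 fold change of the mural genes, 0.96 ± 0.28 (interval 0.32 to 1.61, adjusted p = 0.125). It had 120, 107 and 96 counts in the Ctrl libraries and 327, 159 and 175 in the MP libraries, means of 4.83 and 9.41 CPM. Myh11 (ENSMUSG00000018830), smooth muscle myosin heavy chain, was at 31.2, 26.3 and 35.9 CPM against 58.7, 44.0 and 44.7 CPM (0.66 ± 0.17, adjusted p = 0.1004).

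When MP replicate 1 was left out, the log2 fold changes of these 4 genes were 0.64 for Notch3, 0.54 for Pdgfrb, 0.62 for Cspg4 and 0.52 for Myh11, with adjusted p-values from 0.208 to 0.219. Without Ctrl replicate 1, Notch3 (adjusted p = 0.0292) and Pdgfrb (0.0477) passed edgeR's threshold, in a fit that called 5.91% of all tested genes as higher. Over single left-out libraries the adjusted p of Notch3 and Pdgfrb ran up to 0.285 and 0.307. Notch3 and Pdgfrb also kept a steady ratio to each other, at 0.628 ± 0.0423 Notch3 counts per Pdgfrb count in the Ctrl libraries and 0.657 ± 0.0390 in the MP libraries (SD, n = 3).

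The contractile and remaining mural genes differed less. Rgs5, a regulator of G protein signalling typical of pericytes, was the most abundant of the 40 per length, at 38.9 ± 2.56 FPKM in the Ctrl libraries and 53.8 ± 12.7 FPKM in the MP libraries (SD, n = 3). In CPM it was at 177, 166 and 189 against 305, 186 and 244, with MP replicate 2 inside the Ctrl range (0.47 ± 0.18, adjusted p = 0.211, and 0.29 without MP replicate 1). Mylk, smooth muscle myosin light chain kinase, had 0.43 ± 0.20 and Mcam, the adhesion molecule CD146, 0.17 ± 0.18, both with overlap. Acta2, smooth muscle actin, was at 35.0, 27.3 and 37.9 CPM against 36.8, 28.0 and 22.7 CPM. Its log2 fold change was -0.19 ± 0.20 (interval -0.67 to 0.28), opposite in sign to Myh11. Its sequence is close to that of the very abundant skeletal actin Acta1, so reads may be shared or lost. Cnn1 and Tagln, calponin and transgelin, were scarce, with 12 to 61 and 10 to 25 counts per library. Their log2 fold changes were 0.33 for Cnn1 (interval -0.99 to 1.66) and 0.24 for Tagln (interval -0.73 to 1.22), so both intervals held 0 as well as the Myh11 value. Without MP replicate 1 they were -0.31 and -0.044. Tagln is also uncertain, because Pcsk7, which overlaps it on the opposite strand, had 2610% of its counts.

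Per length, Rgs5 was followed in the Ctrl libraries by Gpihbp1 (18.8 ± 1.88 FPKM), Acta2 (18.7 ± 3.07), Cdh5 (18.2 ± 2.99) and Pecam1 (15.6 ± 3.67), which did not differ beyond their spread (SD, n = 3). At the bottom were Tagln (0.323 ± 0.0906 FPKM), Cspg4 (0.404 ± 0.0282) and Cnn1 (0.432 ± 0.153). Pald1 was at 2.96 ± 0.506 FPKM in the Ctrl libraries, near Notch3 (2.77 ± 0.543) and Kdr (3.12 ± 0.400), and at 9.83, 13.3 and 14.4 FPKM in MP replicates 1, 2 and 3.

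Further genes of the same pathways and cells, 104 in all, were taken from 7 lists drawn up by function, also with earlier results of these data known. Of the 103 tested, 3 passed as higher, Hspg2, Lamc1 and Jag2, and 0 as lower, where 0.788% and 0.508% of all tested genes did so. A log2 fold change above 0 was found in 79 of the 103, against 46.6% of all tested genes, with a median of 0.32. An unadjusted p under 0.05 was found in 32, against 20.8% of all tested genes in either direction, and the counts per list below are to be read against that share. In the Notch list 1 of 12 passed, the ligand gene Jag2, at 27.4, 24.0 and 26.4 CPM against 46.8, 41.8 and 37.9 CPM (log2 fold change 0.70 ± 0.13, adjusted p = 0.0499). The call sat at the threshold and was lost in 11 of 16 alternative fits, and the adjusted p ran from 5.19e-04 to 0.211 over all 16. The log2 fold change of Jag2 stayed between 0.58 and 0.84 in them. Heyl, a NOTCH3 target of mural cells, was at 6.88, 4.02 and 5.30 CPM against 13.8, 8.53 and 10.9 CPM (1.04 ± 0.26, adjusted p = 0.0969), without overlap. The endothelial Notch target Hey1 was at 4.34 to 6.68 against 3.12 to 6.24 CPM, and 6 of the 12 lay above 0.

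In the list of VEGF, angiopoietin, apelin and PDGF genes 0 of 15 passed in edgeR's test, 5 had an unadjusted p under 0.05, and 11 had a log2 fold change above 0. Angptl4, a lipoprotein lipase inhibitor, was at 56.9, 58.4 and 62.9 CPM against 196, 101 and 107 CPM (1.18 ± 0.25, adjusted p = 0.0755). The growth factor gene Fgf2 was lower in every MP library, at 7.22, 8.79 and 8.34 against 4.96, 5.77 and 5.13 CPM (-0.62 ± 0.17, adjusted p = 0.117). The ligands of the receptors above were also looked up. Vegfa, the ligand of KDR and FLT1, was at 160, 126 and 121 CPM against 284, 171 and 170 CPM (0.62 ± 0.23, adjusted p = 0.187, and 0.35 without MP replicate 1). The other VEGF family genes of the list all overlapped between the groups. Their log2 fold changes were 0.04 for Vegfb, 0.19 for Vegfc, 0.23 for Pgf and -0.51 for Vegfd. Apln, the ligand of APLNR, was at 0.184 to 0.834 CPM against 0.339 to 0.909 CPM.

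The vessel basement membrane list, whose proteins muscle fibres share, had 2 of 9 genes past the threshold and 9 of 9 above 0. Hspg2, the heparan sulphate proteoglycan perlecan, was at 156, 129 and 158 CPM against 428, 280 and 317 CPM (1.21 ± 0.19, adjusted p = 0.0362). Lamc1, the laminin gamma-1 chain, was at 89.0, 86.2 and 89.8 CPM against 161, 126 and 140 CPM (0.69 ± 0.12, adjusted p = 0.0496). Among the fits that left out 1 library, both passed without Ctrl replicate 1, where 5.91% of all tested genes were called as higher. Neither passed in the other 5, with edgeR adjusted p up to 0.169 for Hspg2 and 0.214 for Lamc1. The log2 fold changes in these fits stayed between 1.03 and 1.33 for Hspg2 and between 0.60 and 0.77 for Lamc1. Over all 16 alternatives Hspg2 was called in 10 and Lamc1 in 6.

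Further endothelial markers (24) and further mural markers (18) had 0 past the threshold in edgeR's test, with 8 and 5 genes at an unadjusted p under 0.05, 20 and 15 above 0, and medians of 0.38 and 0.41. Of the former, Sema3g, an endothelial semaphorin, had 0.64 ± 0.16 (adjusted p = 0.0934) and Cyyr1 0.92 ± 0.25 (0.114). Of the latter, Heyl was described above and Ndufa4l2, a pericyte-enriched mitochondrial protein, had 0.64 ± 0.17 (0.107). The arterial, venous and lymphatic list, where Gja4 and Ackr1 had 0.86 ± 0.29 (0.168) and -0.56 ± 0.31 (0.345), and the list of TGF-beta, BMP and S1P signalling, where Bmp6 and Bmpr2 had 0.57 ± 0.14 (0.0926) and 0.58 ± 0.20 (0.167), had medians of 0.19 and 0.18 and also 0 past the threshold, with 1 and 5 genes at an unadjusted p under 0.05. Bmp6 codes for a BMP ligand and Bmpr2 for its type II receptor, Gja4 for a connexin of arterial endothelium and Ackr1 for a chemokine-binding receptor of venules.

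Markers of other cells moved beside these genes in part. Those of fibro-adipogenic progenitors, 6 of 6 above 0, summed to 436 to 657 CPM in the Ctrl libraries and to 765 to 868 CPM in the MP libraries, with MP replicate 1 the lowest of the MP libraries. Most of each sum was Dcn, at 522, 579 and 624 CPM in MP replicates 1, 2 and 3. Pdgfra, Lum and Cxcl14 were also lowest of the MP libraries in MP replicate 1. Ly6a and Cd34 were highest there, and Cd34 is also 1 of the further endothelial markers. Those of satellite cells, also 6 of 6 above 0, summed to 53.1 to 65.3 against 74.3 to 86.0 CPM. The sum was again lowest of the MP libraries in MP replicate 1, as were Pax7, Calcr, Myf5 and Cdh15. Among the MP libraries Chodl was lowest in MP replicate 2, and Spry1 was highest in MP replicate 1. Of the 6 satellite cell markers 1, Calcr, passed the test as higher. Tendon markers were highest in MP replicate 1, at 606 CPM against 259 to 402 CPM in the other 5 libraries. Red blood cell genes summed to 46.7 to 83.7 CPM in the Ctrl libraries and to 45.3 to 76.7 CPM in the MP libraries. Macrophage markers, 6 of 6 above 0, ran from 81.8 to 219 and from 144 to 215 CPM, fat cell markers from 48.7 to 229 and from 51.2 to 224 CPM, and Schwann cell markers from 218 to 359 and from 207 to 346 CPM. No gene of these lists was at 0 in all libraries. Their part in the vessel gene values was not tested.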

How the data were processed

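Per the labels' protocols, the 6 libraries were made by the authors from 3 µg of Trizol-extracted muscle RNA with a NEBNext Ultra kit. The build was GRCm38, and HISAT2 (2.0.5) and featureCounts (1.5.0-p3) were used, per the submitters' processing notes. Genes that overlap on opposite strands may share reads, since the strand setting of the counting is not given in the sources used here. The authors deposited whole-number counts for each gene, as the values show. Recomputing them showed that the deposited FPKM values divide counts by length and library size, where the size is a geometric mean of totals multiplied by each library's median-of-ratios factor.

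Groups and replicate numbers came from the sample titles. The test across all genes was run on counts in edgeR 4.0.16 under R 4.3.3 (TMM scaling, filterByExpr, quasi-likelihood test, legacy = FALSE). P-values are two-sided, adjusted by Benjamini-Hochberg over 14973 genes, with a threshold of 0.05. Each SE was derived from the log2 fold change and its F statistic. A floor of 3 counts in a library, which covers counting error only, corresponds to 0.120 to 0.145 CPM. The steps were tested on simulated counts.

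The members and lists were chosen with earlier results of these data known. All 40 members are named. Given in full are those past the threshold and, per group, the 4 with the smallest p and a mean of at least 1 CPM. Of each further list the rule names up to 3 genes past the threshold, or otherwise the 2 with the smallest p. Vegfa, Vegfb, Vegfc, Vegfd, Pgf, Apln, Hey1 and, in the closing section, Klf2, Klf4, Fgfr1 and Fgf1 were named after their values were seen. Ccl21a, with 2 rows, was left out. Alternatives were DESeq2 1.42.0, limma-voom (limma 3.58.1), limma on FPKM with pseudocounts of 1 and 0.1, other scalings and filters, a replicate block and fits without each library.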

Additional observations from a re-analysis of the deposited data

How the results depend on the processing

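All genes past the threshold numbered 194, and 124 without a filter, 1075 with DESeq2, 112 and 121 with limma on log2(FPKM + 1) and log2(FPKM + 0.1), and 0 to 1981 without single libraries (0 without Ctrl replicate 3, where edgeR gave 2166 at an unadjusted p under 0.05, and 1981 without Ctrl replicate 1). Members past the threshold numbered 1 in most settings, 6 with DESeq2 and 0 to 4 without single libraries. They were 0 without Ctrl replicates 2 and 3 and MP replicates 2 and 3, where edgeR gave 9, 9, 17 and 13 members an unadjusted p under 0.05, and 15.5%, 13.9%, 14.3% and 14% of all tested genes. The 4 without Ctrl replicate 1 were Notch1, Notch3, Pald1 and Pdgfrb, where 5.91% of all tested genes were called as higher. Further pathway genes numbered 3, and 1 without a filter, with limma-voom and with both FPKM fits, 16 with DESeq2 and 0 to 17 without single libraries. The cause of these moves was not tested.

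Nothing in the labels says that libraries with equal replicate numbers share an animal, litter or day. The correlations below cannot decide it, because deviations from a mean of 3 libraries depend on each other. Deviations from the group means correlated at 0.01, -0.14 and 0.18 in the same-numbered pairs 1, 2 and 3, and not every library correlated best with its own number. With the number as a replicate block edgeR called 5 genes, 0 members (19 at an unadjusted p under 0.05) and 0 further pathway genes (33), where 21.6% of all tested genes had an unadjusted p under 0.05. Pald1 had 2.07 there, with an adjusted p of 0.0781.

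With library totals alone the all-gene median log2 fold change went from -0.03 to 0.12 and the share of higher calls from 60.8% to 79.2%. Relative to that median 36 of 40 members lay above it in both scalings. Against their sign with all libraries and TMM scaling, Nos3, Angpt2 and Dll4 turned to 0.12, 0.036 and 0.092 with library totals, and Nos3 to 0.020 with upper quartile scaling. Without single libraries, the log2 fold change ran from -0.11 to 0.052 for Nos3, -0.39 to 0.25 for Angpt2, -0.18 to 0.0078 for Dll4, -0.011 to 0.67 for Plvap, -0.24 to 0.77 for Cldn5, -0.23 to 0.24 for Egfl7, -0.14 to 0.45 for Robo4, -0.10 to 0.48 for Angpt1, -0.044 to 0.53 for Tagln and -0.31 to 0.77 for Cnn1. For the scarce ligand gene Apln it ran from -0.20 to 1.38. The other 30 members kept their sign in all 16 alternatives.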

Other observations

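Klf2 and Klf4, transcription factors that laminar flow induces in endothelium and that other cells also express, had log2 fold changes below 0, and neither passed the test. Klf2 was at 71.6, 36.7 and 23.8 CPM in Ctrl replicates 1, 2 and 3 and at 17.1, 22.3 and 24.8 CPM in MP replicates 1, 2 and 3, with overlap (log2 fold change -1.04 ± 0.37, edgeR adjusted p = 0.182). Klf4 was at 44.9, 26.1 and 28.2 CPM against 20.9, 23.6 and 24.3 CPM, without overlap (-0.53 ± 0.21, adjusted p = 0.222). Both were highest in Ctrl replicate 1, the library with 477 CPM of B cell and 86.0 CPM of T cell markers, and the part of these cells in the values was not tested. Without Ctrl replicate 1 the log2 fold changes were -0.50 for Klf2 (adjusted p = 0.152) and -0.25 for Klf4 (0.189).

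Fgfr1, a fibroblast growth factor receptor, was lower in every MP library, like its ligand gene Fgf2. The ligand gene Fgf1 was not, with overlapping groups and a log2 fold change of 0.26 ± 0.21. Fgfr1 was at 172, 232 and 268 CPM against 120, 147 and 159 CPM (-0.66 ± 0.19, edgeR adjusted p = 0.126). It passed in 2 of 16 alternatives, DESeq2 and the fit without Ctrl replicate 1 (-0.82, adjusted p = 0.0197). Muscle fibres and progenitors also express it, and the source of its reads was not tested.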
